A study of Mus musculus with 22 samples.

Results

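Canonical histone genes were described across 22 RNA-seq libraries of mouse duodenal organoids treated with cold atmospheric plasma (CAP), an ionised helium gas that releases reactive species into culture medium. The genes were chosen by name, as rows whose symbol begins with Hist1h, Hist2h, Hist3h or Hist4h and does not end in the pseudogene suffix -ps, which gave 69 of 52636 genes. Of these 69 genes, 67 had a value above 0 in all 22 libraries. Hist1h2aj was above 0 in 20 libraries, with a highest value of 11, and Hist1h2aa in 5, with a highest value of 2. The set held 6 genes for the linker histone H1, 20 for H2A, 18 for H2B, 12 for H3 and 13 for H4. On GRCm38, 56 lay on chromosome 13 (cluster 1), 10 on chromosome 3 (cluster 2), 2 on chromosome 11 (cluster 3) and 1 on chromosome 6 (cluster 4). The cluster was read from the gene symbol. Hist1h2aj and Hist1h2al are annotated there as pseudogenes, and Hist1h2al lies apart, from base 51202727, whereas the other genes of cluster 1 end by base 23934851.

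The organoids were grown from duodenal crypts of adult wild-type mice of the outbred CD1 strain, and each organoid line came from 1 mouse. The untreated group held 4 libraries, from lines 1 to 4, and lines 1, 2 and 4 gave 1 library in each of 6 treated groups. In direct CAP the culture itself was exposed at day 1 and the medium was replaced after 30 min or 24 h. For indirect CAP the organoids were fed medium collected from a separate culture that had been exposed. Plasma-activated medium (PAM) was exposed with no organoids in it. Each of these media was started at day 1 or at day 2. The study describes 24 h of contact with these media, whereas the labels give 0.5 h for the day 1 groups and 24 h for the day 2 groups. In the study's design the dose was moderate and the endpoint was day 3. Cultures treated from day 1 then received fresh medium, whereas the day 2 media stayed on until day 3. The study also speaks of the 30 min group as an early time after treatment. Time in fresh medium therefore cannot be told apart from start day or length of exposure. By the labels, lines 1 and 2 were at passage 12 and 14 and lines 3 and 4 at passage 4. The study lists wild-type lines with passages 12 and 14 as male and those with passage 2, to which no label corresponds, as female, all from mice aged 2 months, so that line, passage and, if that list applies, sex cannot be told apart.

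Canonical histone genes supply the core histones H2A, H2B, H3 and H4, around which DNA is wound, and the linker histone H1, which binds where DNA enters and leaves that core. Most are transcribed in S phase, when new DNA has to be packed. Their mRNAs are the main class in animals without a poly(A) tail. The mRNA ends instead in a short stem-loop, which the stem-loop binding protein SLBP holds during processing, translation and decay. In the intestine, dividing cells of the crypt make most of these mRNAs, and some histone genes can also yield polyadenylated mRNAs in cells that have left the cycle.

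The stem-loop is the sequence that these genes share, and it was searched for in the annotated 3' ends (GENCODE vM21, GRCm38). An exact stem-loop of 16 bases was found in 44 of 69 genes, in 6 forms, whereas 17 genes had no annotated stretch long enough to hold one and none was found in 8. One example of each form is shown with its flanks, the stem-loop itself being in capitals. The first form was held by 26 genes, the second by 7, the third by 6, the fourth and the fifth by 2 each and the last by 1.
Hist1h2bm: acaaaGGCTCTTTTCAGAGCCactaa
Hist1h4d: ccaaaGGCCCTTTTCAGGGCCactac
Hist1h2bb: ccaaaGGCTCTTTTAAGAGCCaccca
Hist2h4: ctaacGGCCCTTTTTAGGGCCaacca
Hist1h4b: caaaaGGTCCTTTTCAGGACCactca
Hist2h2ac: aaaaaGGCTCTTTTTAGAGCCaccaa
The annotation continued past the stem-loop by at most 100 bases in 22 genes and by more than 300 bases in 18 genes, as in Hist1h1c (840 bases), Hist1h1e (1153) and Hist1h1d (4884). Gene models that run on in this way hold sequence beyond the usual end of a stem-loop mRNA.

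H2A and H2B genes often stand head to head and share the DNA between their starts. There were 14 such divergent pairs, of which 13 joined an H2A to an H2B gene, with 175 to 305 bases between the starts. RefSeq promoters (GRCm38.p6, from 250 bases before to 50 after the start) were matched for 61 of 69 genes. The octamer ATTTGCAT, known in H2B promoters, was found on either strand in 7 of 17 H2A and 6 of 16 H2B promoters, in no H1, H3 or H4 promoter, and in 1.75% of all 27025 promoters. The windows of divergent neighbours can overlap, so these counts are not of separate sites. A single octamer was counted for both genes in the pairs Hist1h2ae and Hist1h2bg, Hist1h2ah and Hist1h2bk, and Hist1h2aa and Hist1h2ba. The letters CCAAT were found in 52 of 61 histone promoters against 37.9% of all promoters, but in 3 of 12 promoters of H4 genes. An octamer in each orientation, in capitals, is shown for an H2B and an H2A gene that were both called lower after 24 h of CAP from day 1.
Hist1h2bb, chr13:23746624-23746683, + strand: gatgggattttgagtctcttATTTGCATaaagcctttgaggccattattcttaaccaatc
Hist1h2ab, chr13:23750939-23750998, + strand: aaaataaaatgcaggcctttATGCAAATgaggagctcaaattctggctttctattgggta

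Values are reads per gene, scaled by the authors to 20000000 per library and not divided by gene length. Each library's values summed to 20007540 to 20016513, and the spacing of low values gave an estimated 19700000 to 28700000 reads per library (median 22550000). Markers of the duodenum (Pdx1 and Gata4) were present in every library, with sums of 4647 to 6897, and so were epithelial markers. Markers of other cells were low. Of 7 mesenchymal markers, Col1a2, Col3a1, Pdgfra and Dcn never reached 10, 1 to 3 had a group median of 10 or more, and the sum was 28 to 90. Of 3 endothelial markers, Cdh5 and Kdr never reached 10, and the sum was 2 to 28. Of 2 ileal markers, Fabp6 never reached 10, and the sum was 30 to 242. Of 5 immune markers, Cd79a never reached 10, 3 had a median of 10 or more in each group, and the sum was 256 to 384. The crypt stem cell markers Lgr5 and Olfm4, however, moved with treatment, from a summed value of 22172 to 27247 in untreated libraries to 244 to 1151 after PAM from day 1 and 218 to 962 after PAM from day 2. In bulk RNA, fewer cells in S phase and less histone mRNA per cell cannot be told apart.

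In untreated organoids the 69 genes together took 0.642% ± 0.0291 (SD, n = 4) of all values, or 128412 ± 5829. H4 genes gave 26.6% of this sum, H1 genes 23.6%, H2B genes 18.4%, H2A genes 16.5% and H3 genes 15%. The highest reads per gene were those of the linker histone genes Hist1h1c (9115), Hist1h1e (7561) and Hist1h1d (6790). Hist2h2bb (H2B, 5577), Hist1h4d (H4, 4980), Hist1h3e (H3, 4952), Hist1h2al (H2A, 4529), Hist1h1b (H1, 4140), Hist1h4h (H4, 4128) and Hist1h2ak (H2A, 3694) followed. Per kilobase of annotated exon the order was different, with Hist2h2bb (14600 per kb) and the pseudogene Hist1h2al (13400 per kb) on top and Hist1h1c at rank 10 (5840 per kb). The long model of Hist1h1d put it at 914 per kb.

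Such levels are uncertain for copies that share sequence and for genes that overlap others. Windows of 100 bases were compared between genes. In the 13 genes with 80% or more of their windows in another histone gene, the median untreated level was 105 per kb, while it was 2770 per kb in the 38 genes with 10 to 80% and 982 per kb in the 18 genes with under 10%, so the level did not follow the shared part in one direction. The splitting of reads between near-identical copies was not tested. Furthermore, 26 histone genes overlapped an annotated gene outside the set, in 32 pairs. In 23 pairs the log2 values of both genes had a correlation of at least 0.9 over the 22 libraries, which share depth and treatment, and the lowest was -0.215. In some pairs the levels were far apart, as in Hist1h1e with 7561 beside the pseudogene Gm11398 with 14.5, and Hist2h2aa1 with 14.2 beside Gm20634 with 332. In others they were close. Trim17, which overlaps Hist3h2a, had an untreated mean of 1696 beside 1702, and the antisense gene 4930558J22Rik had 2686 beside 2772 for Hist1h4b. Gm20628, on the strand opposite to Hist2h3b and Hist2h2bb, had 7030, beside 7009 for both genes added together. In addition, 17 predicted microRNA genes of 129 to 144 bases lay inside H2A genes, all on the opposite strand. For the 13 whose host had an untreated mean of at least 100, the value was 0.241 to 0.834 times that of the host (median 0.728), as in Gm44454 with 2780 inside Hist1h2ak with 3694. The reads of overlapping genes on opposite strands cannot be told apart in this table.

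All treated groups had a lower mean of summed histone values than the untreated organoids, in different degrees. The untreated libraries of lines 1 to 4 stood at 130424, 120452, 128484 and 134287. Direct CAP for 30 min gave 118057, 129261 and 73388 in lines 1, 2 and 4, and direct CAP for 24 h gave 109019, 90191 and 103106. The sums after indirect CAP from day 1 were 109036, 95738 and 63094. Line 4 thus stood well below the others after direct CAP for 30 min and indirect CAP from day 1, and the 30 min group overlapped the untreated range. Those of PAM from day 1 were 53585, 56971 and 49374. Lines 1, 2 and 4 had 66894, 70948 and 71560 with indirect CAP from day 2, and 54037, 47023 and 40071 with PAM from day 2. The 9 libraries of these last 3 groups were below every untreated and every direct 24 h library. As a share of the untreated mean, the group means were 83.2% for direct CAP for 30 min, 78.5% for 24 h, 69.5% for indirect CAP from day 1, 41.5% for PAM from day 1, 54.4% for indirect CAP from day 2 and 36.6% for PAM from day 2.

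**Figure D1:**
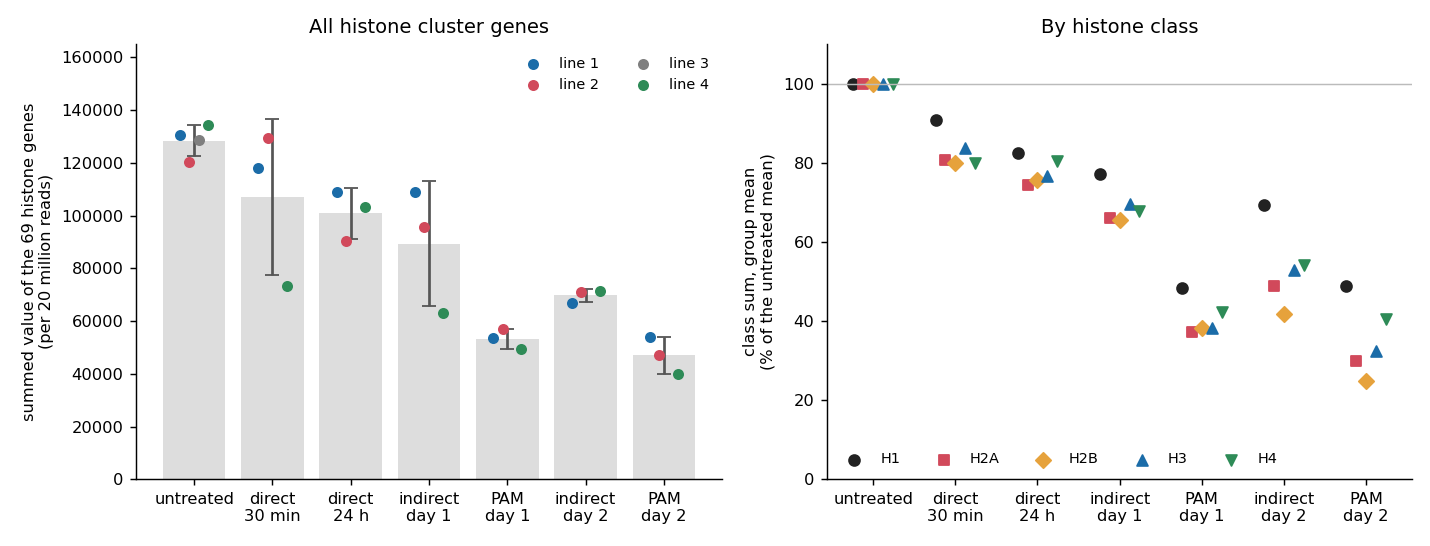
Left, summed value of the 69 histone genes (reads per 20000000) in each library, with points coloured by organoid line and bars at the group mean ± SD (n = 4 untreated, n = 3 otherwise). Right, mean sum of each histone class as a percentage of its untreated mean. Line 4 lies low after direct CAP for 30 min and indirect CAP from day 1, and H1 has the highest percentage in every group. In both PAM groups (38.1% and 34% without it) and after direct CAP for 24 h (74.7%) this rests on Hist1h1c, without which H1 lies below H4.

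The classes did not move equally. With PAM from day 2, H2B sums were at 24.8% of the untreated mean, H2A at 29.8%, H3 at 32.5%, H4 at 40.6% and H1 at 48.8%. After indirect CAP from day 2, the same order ran from 41.8% for H2B to 69.3% for H1. With PAM from day 1, the core classes lay closer together, at 37.3% for H2A, 38.3% for H2B, 38.3% for H3 and 42.2% for H4, with H1 at 48.3%. In some groups the place of H1 rested on Hist1h1c. Without that gene H1 sums were at 38.1% after PAM from day 1 and 34% after PAM from day 2, so that H4 stood above H1 in both PAM groups. After direct CAP for 24 h, H1 sums went from 82.5% to 74.7% without it, below H4 at 80.5%. After indirect CAP from day 2 they were at 56.8% without it, still above H4 at 54.1%. These shares are of group means with n = 3, and the order of classes was not tested. With PAM from day 2 the sums spread widely between lines, over 4156 to 8106 for H2B, 4955 to 8081 for H2A and 4757 to 7996 for H3. The untreated means of these classes were 23616, 21171 and 19243.

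Each gene was then tested with limma on log2(value + 1), with Benjamini-Hochberg adjustment over all genes that reached 10 in 3 or more of the libraries fitted. The threshold was an adjusted p under 0.01 with a log2 fold change of at least 1. Hist1h1t, a testis H1 with values of 2 to 12, and the H2A genes Hist1h2aa, Hist1h2ao and, in most comparisons, Hist1h2aj were too low to be tested, so that 65 or 66 genes remained. No histone gene was past the threshold in the higher direction in any of the 11 comparisons. The 6 treated groups were set against the same 4 untreated libraries, so their results are not independent of each other.

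The main question was what 24 h of CAP from day 1 changed, whichever way it was given (direct 24 h, indirect and PAM together, 9 libraries). These libraries came from lines 1, 2 and 4, so each mouse counts more than once in a fit without the line as a block. In this comparison 5 of 66 histone genes fell, against 2.07% of all genes called lower. They were the H2A genes Hist2h2ab, Hist1h2af, Hist1h2an and Hist1h2ab and the H2B gene Hist1h2bb. Hist2h2ab had 332, 303, 321 and 291 in untreated lines 1 to 4. Lines 1, 2 and 4 had 201, 149 and 189 after direct CAP for 24 h, 264, 183 and 124 after indirect CAP and 73, 98 and 82 after PAM. The treated range lay wholly below the untreated one, with a log2 fold change of -1.15 (SE 0.29, limma adjusted p = 0.0082). Hist2h2ab overlaps Gm15444 on the opposite strand, with untreated means of 311.8 and 284.5, so its reads cannot be told apart from those of that gene. The other 4 changed by -1.11 to -1.03, and 32.8% to 83.3% of their windows lay in other histone genes. Over all 66 genes the median log2 fold change was -0.80 beside -0.05 for all genes tested, and 35 genes had all 9 treated libraries below all untreated ones, as had 10.5% of all genes.

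This call rested on few genes near the threshold. With the organoid line as a block 0 genes were called (1.9% of all genes), and likewise 0 when any single untreated library, indirect day 1 line 4, or PAM line 4 or 2 was left out, and leaving out PAM line 1 or direct 24 h line 2 gave 1 and 2. The count rose to 13 without indirect day 1 line 1, to 8 without its line 2, and to 9 without direct 24 h line 1 or line 4. When the adjusted p had to be under 0.05 and any fold change was accepted, 49 of 66 genes were lower, beside 18.7% of all genes, and 30 with the block, beside 15.8%. All block fits against untreated paired libraries by line, and the pairing of untreated lines 1 and 2 is in doubt, as described with the processing. The block counts against untreated are uncertain to that extent.

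Direct CAP for 30 min called 0 of 65 histone genes (lower calls over all genes 0%), also with the block and with an adjusted p under 0.05, and 3 at an unadjusted p under 0.05 with limma (11% of all genes). The median log2 fold change was -0.36, and -0.06 without the libraries of line 4. Direct CAP for 24 h called 0 of 66 (0.917% of all genes), while 37 were lower at an adjusted p under 0.05 (10.2% of all genes) and 15 with the block (6.16%), with a median of -0.40. Indirect CAP from day 1 called 0 of 65 (0.477% of all genes) and 29 were lower at an adjusted p under 0.05 (10.4% of all genes) and 21 with the block (8.05%), with a median of -0.62, which became -0.35 without line 4. At an unadjusted p under 0.05, 44 genes were lower after direct CAP for 24 h (19.8% of all genes) and 49 after indirect CAP from day 1 (18.9%).

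PAM from day 1 lowered 54 of 65 histone genes past the threshold, whereas 5.4% of all genes were called lower. Hist1h1b (H1) stood at 3590 to 4604 in the 4 untreated libraries and at 1337, 1239 and 1143 after PAM from day 1. Another H1 gene, Hist1h1d, went from 6570 to 7067 in untreated libraries to 2763, 2919 and 2516. Both groups of libraries were far apart for these genes, with log2 fold changes of -1.74 (SE 0.10, limma adjusted p = 4.3e-05) and -1.31 (SE 0.08, limma adjusted p = 4.3e-05). The 54 genes changed by -1.88 to -1.09, a narrow range that took in 4 of 5 H1, 14 of 17 H2A, 14 of 18 H2B, 10 of 12 H3 and 12 of 13 H4 genes tested. The median over 65 genes was -1.42 beside -0.13 for all genes. All 3 PAM libraries were below all untreated ones in 60 genes, as in 29.7% of all genes.

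Indirect CAP from day 2 called 34 of 65 histone genes lower (5.71% of all genes), with changes of -1.69 to -1.01 and a median of -1.02 beside -0.01. At an adjusted p under 0.05, 57 were lower (23.5% of all genes), and 59 with the block (20.6%). The genes called were 12 of 18 H2B and 11 of 17 H2A genes, 5 of 13 H4, 4 of 12 H3 and 2 of 5 H1 genes. The 2 H1 genes were Hist1h1a, at 841, 1083 and 805 beside 2103 to 2883 in untreated libraries, and Hist1h1b, at 1498, 1384 and 1479.

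PAM from day 2 called 54 of 65 histone genes lower (10.5% of all genes), with a median of -1.83 beside -0.12, and the changes spread over -2.97 to -1.07. The deepest was that of Hist1h1a, an H1 of dividing cells, from 2685, 2103, 2874 and 2883 in untreated lines 1 to 4 to 591, 381 and 164 in lines 1, 2 and 4. Its log2 fold change was -2.97 (SE 0.38, limma adjusted p = 0.00073). Hist1h2bm (H2B) went from 1881 to 2284 in untreated libraries to 516, 246 and 150, a log2 fold change of -2.95 (SE 0.35). Hist1h2an (H2A, -2.91), Hist1h1b (H1, -2.84) and Hist1h2bb (H2B, -2.80) completed the 5 lowest. In each of these genes line 1 kept the highest and line 4 the lowest of the 3 values, and all were below the untreated range. The smallest changes among the genes called were those of Hist1h1e (H1, -1.07), Hist1h4h (H4, -1.08), Hist2h4 (H4, -1.10), Hist1h2bc (H2B, -1.15) and Hist3h2a (H2A, -1.16). The other genes named for their high untreated level, Hist2h2bb (-2.04), Hist1h2ak (-2.12), Hist1h1d (-1.40), Hist1h3e (-1.37), Hist1h2al (-1.22) and Hist1h4d (-1.18), also fell.

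**Figure D2:**
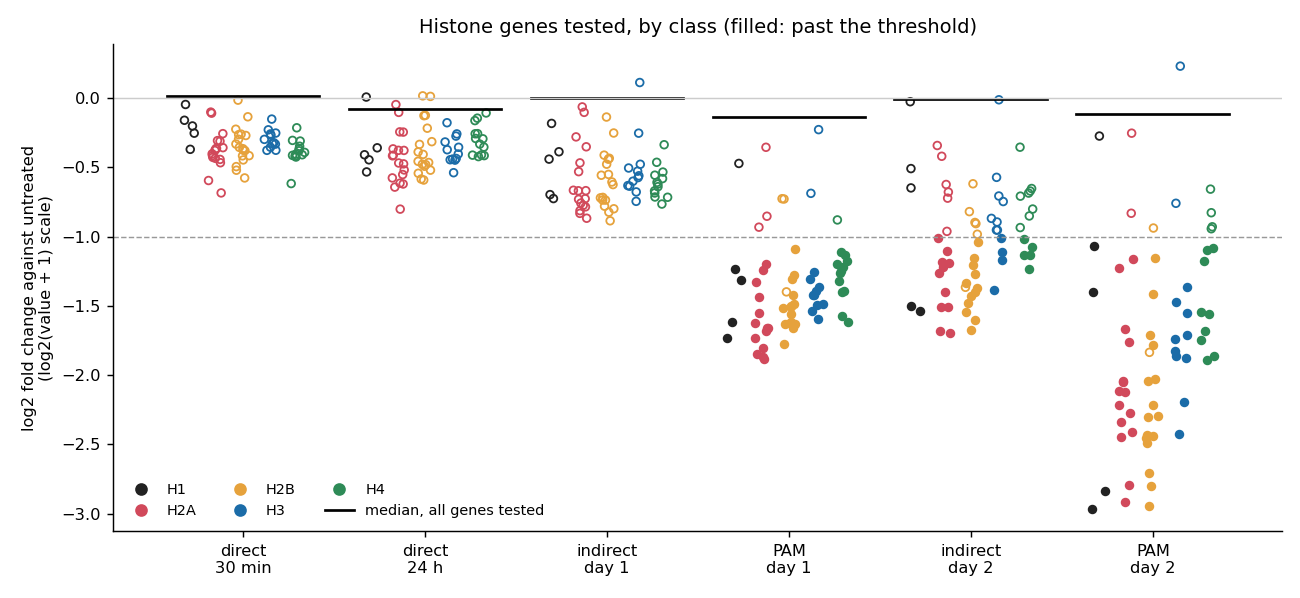
Log2 fold change against the untreated libraries (log2(value + 1) scale) of each histone gene tested, by treated group and histone class. Filled points passed the threshold, the dashed line marks a log2 fold change of -1 and the black bars give the median of all genes tested. The points lie close together after PAM from day 1 and spread to -2.97 after PAM from day 2.

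Of the 11 genes not called after PAM from day 2, Hist1h1c stood out by its level. It is an H1 known to be expressed also outside S phase. Its untreated values were 8976, 8765, 8287 and 10431, and those after PAM from day 2 were 6324, 7622 and 8795, so that the groups overlapped (log2 fold change -0.27, SE 0.13, limma adjusted p = 0.12). After indirect CAP from day 2 its change was -0.03 (SE 0.10, limma adjusted p = 0.85), and after PAM from day 1, with 6385, 6738 and 6531, it was -0.47 (SE 0.09, limma adjusted p = 0.0047), below the minimum fold change. Its share of the summed histone values was 7.09% ± 0.563 (SD, n = 4) in untreated organoids and 16.6% ± 5.11 (SD, n = 3) after PAM from day 2.

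The 5 H1 genes measured thus spread widely after PAM from day 2, from -2.97 and -2.84 for Hist1h1a and Hist1h1b, over -1.40 and -1.07 for Hist1h1d and Hist1h1e, to -0.27 for Hist1h1c. Hist1h1d and Hist1h1e had log2 fold changes of -0.65 and -0.51 after indirect CAP from day 2, under the minimum of 1. Exons of the H2B gene Hist1h2be overlap Hist1h1e on the same strand, so the values of both are uncertain.

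**Figure D3:**
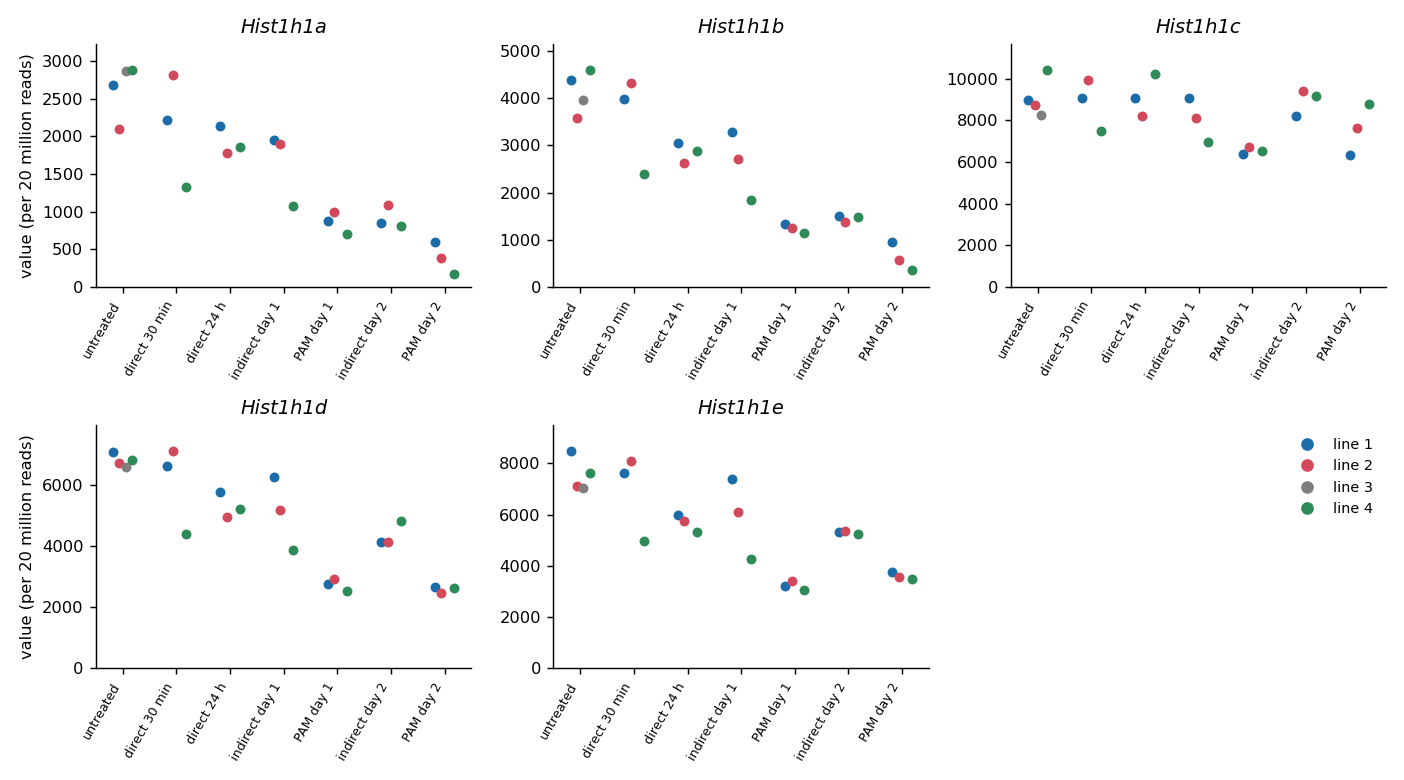
Values (reads per 20000000) of the 5 H1 genes in each of the 22 libraries, by group, coloured by organoid line. Hist1h1a and Hist1h1b decline to 164 to 591 and 347 to 958 after PAM from day 2, while the values of Hist1h1c lie between 6324 and 10431 throughout.

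The remaining genes not called after PAM from day 2 were mostly genes of low level, of cluster 2 or of class H4. Of 13 H4 genes, 9 were called, with a median of -1.18. Hist1h4c, with an untreated mean of 2648 and 1396 after PAM from day 2, and Hist1h4n, with 1160 and 655, were not called. In cluster 2, 5 of 10 genes were called, with a median of -1.02, and in cluster 1, 46 of 52, with a median of -1.87. Of the genes not called, Hist2h3c2 had a log2 fold change of 0.23 at an untreated mean near 43, and Hist2h2aa1 one of -0.25 at a mean near 14. These genes, Hist2h2aa2 and Hist2h3c1 share sequence with other histone genes, so their own level is uncertain.

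The length of the annotated tail was another feature that the choice of genes did not use. In PAM from day 2, the median was -1.89 in the 21 genes tested whose model ended within 100 bases of the stem-loop and -1.27 in the 18 genes whose model ran on for more than 300 bases. After indirect CAP from day 2, these medians were -1.11 and -0.72, with 12 of 21 and 4 of 18 genes called. After PAM from day 1 they were -1.48 and -1.24. No test was made of this difference, and the class and level of the genes also differ between these sets.

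Divergent neighbours had similar changes in many pairs but not in all. No comparison was made with genes that are not neighbours. After PAM from day 2 all H2A and all H2B genes tested had medians of -2.12 and -2.26, so similar changes are not particular to the pairs. In 11 pairs with both genes tested, the difference between the log2 fold changes after PAM from day 2 was 0.08 to 1.08, with a median of 0.34. Hist1h2bl and Hist1h2ai changed by -2.43 and -2.34, and Hist1h2ak and Hist1h2bn by -2.12 and -2.03. By contrast, Hist1h2an changed by -2.91 and its partner Hist1h2bp by -1.84, and Hist2h2ac by -1.76 and its partner Hist2h2be by -0.94.

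Whether medium alone and an exposed culture differed was asked by comparing PAM from day 1 with 24 h of direct CAP. This comparison used the same 3 lines in both groups and no untreated library. By the labels the PAM libraries had 0.5 h and the direct ones 24 h, whereas the study describes 24 h for both. If the labels hold, length of contact cannot be told apart from the way CAP was given. By the threshold 0 genes of 17072 were called (0% of all genes). At an adjusted p under 0.05, however, 42 genes were lower after PAM, and 32 of them were histone genes of the clusters, which was 49.2% of the 65 histone genes tested beside 0.246% of all genes. A further 6 of the 42 were predicted microRNA genes that overlap histone genes and 1 overlaps H2afx, and their reads cannot be told apart from those of the gene they overlap. The other 3 genes were H2afx, which encodes the variant H2A.X, Hmgb2, a chromatin protein of dividing cells, and Neurog3, the factor that starts enteroendocrine differentiation. The 2 genes higher after PAM were Muc3 and Gm3054. At an unadjusted p under 0.05, 60 histone genes were lower (7.01% of all genes).

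Hist1h1b had 3047, 2633 and 2881 after direct CAP for 24 h and 1337, 1239 and 1143 after PAM from day 1, a log2 fold change of -1.20 (SE 0.11, limma adjusted p = 0.036). Hist1h2ak had 2654, 2567 and 2485 beside 1206, 1235 and 1142, a log2 fold change of -1.10 (SE 0.10, limma adjusted p = 0.036). The values after PAM were below all direct values in both genes, as they were in 60 of 65 histone genes and in 10.5% of all genes. The 32 genes changed by -1.27 to -0.82, and the median over all 65 was -1.04 beside -0.04 for all genes.

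With the organoid line as a block, the test removed the differences between lines. Then 48 genes fell past the threshold, of which 29 were histone genes, 44.6% of those tested beside 0.281% of all genes, and 8 more were microRNA genes inside them. At an adjusted p under 0.05 with the block, 57 of 65 histone genes were lower, beside 1.59% of all genes. Within line 1 the median difference of histone genes was -1.14, in line 2 it was -0.76 and in line 4 it was -1.18, where the medians of all genes were -0.07, -0.03 and -0.02.

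**Figure D4:**
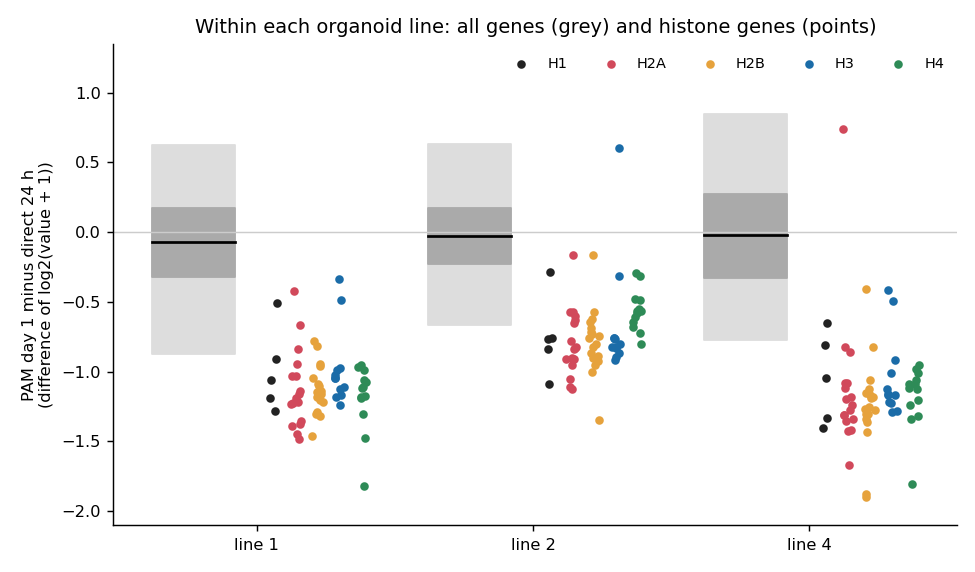
Difference between PAM from day 1 and direct CAP for 24 h (log2(value + 1)) within each organoid line. Grey boxes span the middle of the 17072 genes tested, from percentile 5 to 95 (light) and 25 to 75 (dark), with the median as a line, and points are the 65 histone genes by class. In lines 1, 2 and 4, 57, 42 and 60 of the 65 points lie below the light box.

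Other RNAs without a poly(A) tail were looked at after these values were seen, since libraries can differ in how much of such RNA they hold. Between PAM from day 1 and direct CAP for 24 h, the log2 differences were -0.26 for Rn7sk, -0.29 for Rmrp, -0.25 for Rpph1, -0.46 for Scarna2 and -0.96 for Terc, with limma adjusted p-values of 0.24 to 0.50. All 5 were thus lower after PAM by point estimate, Terc by nearly as much as the histone median of -1.04. Against untreated, all 5 were also lower after PAM from day 1, by -0.73 for Terc (limma adjusted p = 0.00097), -0.53 for Scarna2 (limma adjusted p = 0.0018) and -0.23 to -0.15 for the others, beside the histone median of -1.42. After PAM from day 2 against untreated they differed by -0.12 to 0.14, beside a histone median of -1.83. The crypt stem cell markers had summed values of 3186 to 5965 after direct CAP for 24 h and 244 to 1151 after PAM from day 1. The part of either in the histone result was not tested.

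Within a mode of treatment, an earlier and a later or a shorter and a longer exposure were compared. By the study's design the time in fresh medium before the endpoint also differed, and it cannot be told apart from the exposure. Direct CAP for 24 h against 30 min called 0 histone genes of 65, with 0 at an unadjusted p under 0.05 in the lower direction with limma (15% of all genes), and the median changed sign when a single 30 min library was left out, from 0.13 without line 2 to -0.32 without line 4. Indirect CAP from day 2 against day 1 also called 0, with 25 lower at an unadjusted p under 0.05 (12.6% of all genes) and a median of -0.45, which became -0.25 without indirect day 1 line 1 and -0.71 without its line 4. With the block and an adjusted p under 0.05, 28 genes were lower there (14.3% of all genes). PAM from day 2 against day 1 called 0, with 16 lower at an unadjusted p under 0.05 (14.1% of all genes), 3 with the block and an adjusted p under 0.05 (6.99%), and a median of -0.43, which became -0.15 without PAM day 2 line 4 and -0.26 with no library of line 4. In that comparison 53 of 65 genes had a log2 fold change below 0, as had 51.5% of all genes, and the range was -1.35 to 0.63. The lower calls over all genes were 0% in each of the 3 comparisons.

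The machinery around histone supply was described with 4 gene lists. S phase companions, which copy DNA or make its building blocks (Pcna, Mcm2 to Mcm7, Rrm1, Rrm2, Tyms and others), had 14 genes tested. Of these, 5 fell after PAM from day 1 (5.4% of all genes), 13 after indirect CAP from day 2 (5.71%) and 14 after PAM from day 2 (10.5%), with medians of -0.95, -1.43 and -2.41 beside -0.13, -0.01 and -0.12 for all genes. The histone genes had medians of -1.42, -1.02 and -1.83 in the same comparisons. Histones were thus the lower set after PAM from day 1 and the S phase companions after both day 2 treatments, as values side by side, with no test between lists. When PAM from day 1 was compared with direct CAP for 24 h, 0 of 14 S phase companions were called at an adjusted p under 0.05, with a median of -0.38. With 0.246% of all genes lower there, this count is near the share of all genes. Tyms (-0.80), Ccne2 (-0.77), Mcm6 (-0.77) and Mcm2 (-0.75) had the largest values in the 9 libraries treated for 24 h from day 1. There 0 of 14 passed the threshold (2.07% of all genes called lower) and 14 were lower at an adjusted p under 0.05 (18.7% of all genes).

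Among chaperones, which carry new histones to DNA, Nasp and Asf1a fell after 24 h of CAP from day 1, by log2 fold changes of -1.03 (SE 0.16) and -1.01 (SE 0.23). They were 2 of 20 chaperone genes tested, beside 2.07% of all genes called lower. The values of Asf1b (-0.93), Hjurp (-0.74), Anp32e (-0.71) and Chaf1a (-0.70) did not reach the minimum fold change. In PAM from day 2, 11 of 20 chaperone genes fell, beside 10.5% of all genes, and the median was -1.16 beside -0.12. Of 18 genes for transcription, processing and decay of histone mRNA, 0 fell after 24 h of CAP from day 1 (2.07% of all genes). The counts were 1 after PAM from day 1 (5.4% of all genes), 0 after indirect CAP from day 2 (5.71%) and 4 after PAM from day 2 (10.5%). The count after PAM from day 1 is thus near the share of all genes. Slbp, the stem-loop binding protein, was the gene that fell after PAM from day 1, from 948 to 1057 in untreated libraries to 467 to 533, a log2 fold change of -1.04 (SE 0.09, limma adjusted p = 0.00015). In the 24 h comparison from day 1, Slbp had -0.79, Casp8ap2, which encodes the processing factor FLASH, -0.72, Ncbp2 -0.67 and Pou2f1, the factor that binds the octamer, -0.59.

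Variant histones, most of whose mRNAs are polyadenylated and made outside S phase, moved unequally. H2afv fell after 24 h of CAP from day 1 (-1.09, SE 0.17), and it was the single gene called of 10 tested, beside 2.07% of all genes called lower. H2afy2 was at 1.18 there without passing the threshold. Cenpa, the centromeric H3, had -0.68, H2afx -0.55 and H2afz -0.54. After PAM from day 2, 5 of 9 fell, beside 10.5% of all genes, among them H2afx (-1.73, SE 0.17). H1f0, the H1 of cells that have stopped dividing, stood at 6661 to 8638 in untreated libraries, at 8886 to 11730 after indirect CAP from day 2 and at 7979 to 11480 after PAM from day 2. Its log2 fold changes were 0.48 (SE 0.12, limma adjusted p = 0.013) and 0.44 (SE 0.15, limma adjusted p = 0.042), so it did not pass the threshold.

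A few histone genes also differed between organoid lines. Hist1h4i (H4) had 2199 and 2343 in untreated lines 1 and 2 and 975 and 1001 in lines 3 and 4. Hist1h2bj (H2B) went the other way, with 715 and 716 in lines 1 and 2 and 2175 and 2193 in lines 3 and 4. The order of lines 1 and 2 against line 4 was the same in all 7 groups, and the mean values over the 7 groups were 1717, 1754 and 615 for Hist1h4i and 537, 470 and 1201 for Hist1h2bj in lines 1, 2 and 4. These genes are neighbours on chromosome 13, Hist1h4i at 22040636 to 22041362 and Hist1h2bj at 22043214 to 22043676. Both had lower values after PAM from day 2 in each of the 3 lines, but Hist1h4i was not called (-0.66, SE 0.49), and the test that pools the lines gave it a large error.

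Next to them, Hist1h2ag was higher in untreated lines 3 and 4 (877 and 947) than in lines 1 and 2 (632 and 580), although the order did not hold in all groups. Hist1h2ah was lower in line 4 than in lines 1 and 2 in all 7 groups (589 beside 696 and 679 when untreated), and in untreated line 3 it was 590. The mean values of Hist1h2bk, in the same stretch of 8513 bases, were 1102, 1001 and 816 in lines 1, 2 and 4. Further along the cluster, Hist1h2bp had 327 and 286 in untreated lines 1 and 2 and 158 and 151 in lines 3 and 4. In all, 5 of 67 histone genes had lines 1 and 2 on one side of line 4 in all 7 groups with a mean log2 difference of at least 0.5, as had 5.11% of the 19370 genes considered, so the share was close to that of all genes. Hist2h2be completed these 5 genes, with Hist1h4i, Hist1h2bj, Hist1h2ah and Hist1h2bp. They were named after their values were seen, and the part of passage or sex cannot be told apart from that of the line. Windows in other histone genes made up 15.1% of Hist1h4i, 40.1% of Hist1h2bj, 87.9% of Hist1h2ah, 31.1% of Hist1h2bp and 0% of Hist2h2be. Whether reads of such shared stretches were split differently between lines was not tested.

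**Figure D5:**
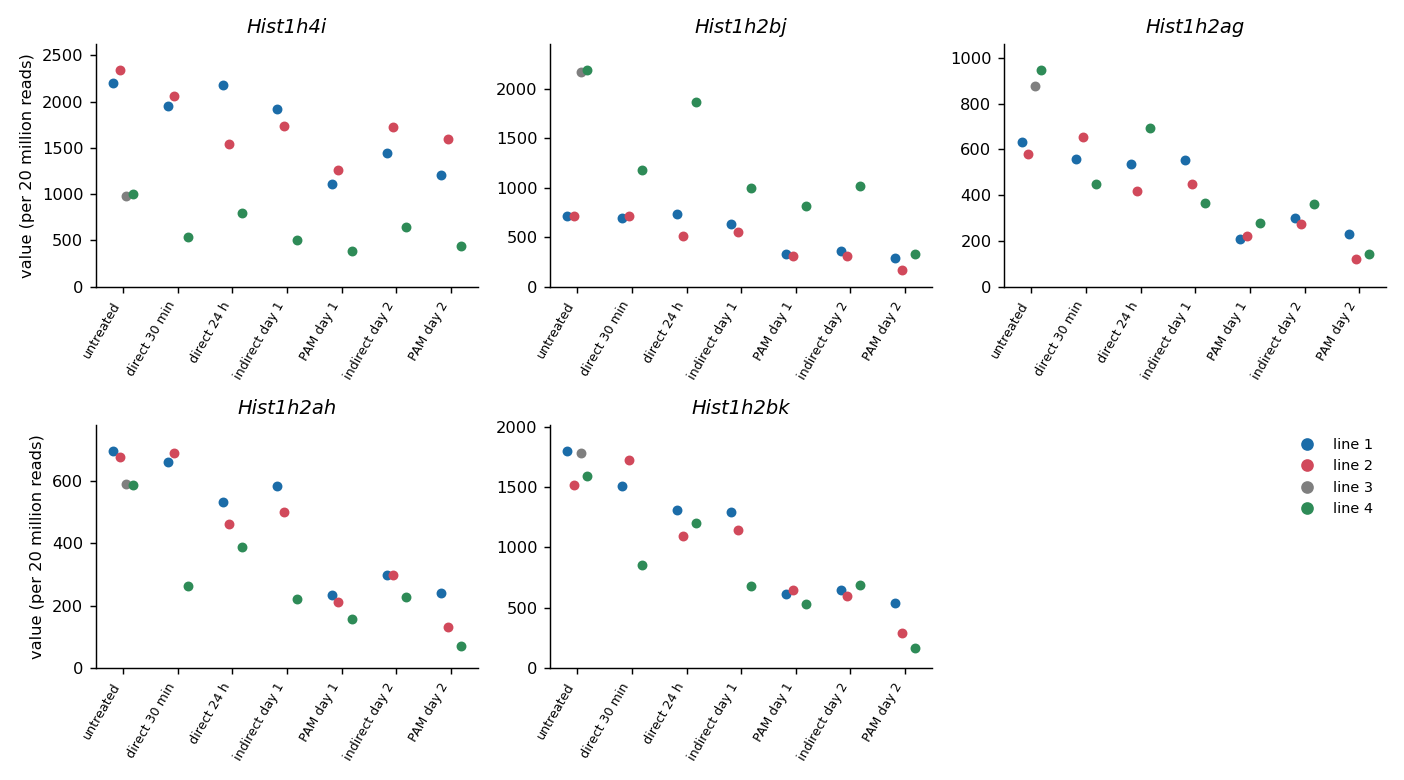
Values (reads per 20000000) of 5 neighbouring histone genes on chromosome 13 in each of the 22 libraries, by group, coloured by organoid line. Hist1h4i is at 383 to 1001 in line 4 and at 1110 to 2343 in lines 1 and 2, and Hist1h2bj shows the opposite order.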

How the data were processed

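RNA-seq of 22 libraries was analysed. Per the labels and the study's methods, the authors prepared total RNA with Ovation SoLo kits (the study also names NEBNext), trimmed reads with Trimmomatic 0.36, aligned them with STAR 2.5.3a to GRCm38 and counted them with HTSeq 0.9.1. The strand setting is not given in the sources used here. The deposited value is a score, reads per gene scaled by the authors to 20000000 per library and rounded up. The study defines its unit per kilobase, but these values are not divided by length. Raw counts were not used here, so no count test was run.

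The log2(value + 1) values went into limma 3.58.1 (trended, moderated) in R 4.3.3, over genes at 10 or more in at least 3 libraries, with only the groups compared in each fit. The method was tested on simulated data. Sequences and overlaps came from GENCODE vM21 and RefSeq, using Python 3.11.15 with matplotlib 3.10.9.

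Genes, lists and comparisons were chosen with earlier results of these data known. The histone genes named are the 10 highest in untreated libraries, the 5 lowest and 5 highest changes among those called after 24 h of CAP from day 1 and after PAM from day 2, and all H1 genes. Genes of the other lists are those called after 24 h of CAP from day 1 plus up to 4 more by size of change. Others named were chosen after their values were seen.

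Libraries with the same number share a line and so a mouse. After removing group means, the median correlation was 0.536 within a line and -0.306 between lines. The untreated libraries of lines 1 and 2 fitted the other's line better (0.541 and 0.353) than their own (0.075 and 0.132), so their pairing is in doubt. Every block fit against untreated rests on this pairing. None of 24 pairs of libraries within groups was a duplicate. Alternatives were one fit of all 7 groups, no filter, a pseudocount of 10, quantile normalization, the block, an adjusted p under 0.05, leaving out each library, and, for the first comparison, genes with at most 10% of windows in another member. Added after seeing the data were no library of line 4 and the block with an adjusted p under 0.05.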

Additional observations from a re-analysis of the deposited data

Results flagged for a closer look

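Among 28 values checked in the untreated libraries, 3 had a library far from the other 3, by the ratio of its gap to the whole range (chance flags about 1 in 20 such groups). The ratio was 0.861 for Hist1h2af, where line 1 stood at 1397 and the others at 1146 to 1181, and 0.858 for Hist1h4h, where line 4 stood at 4390 and the others at 4004 to 4059. It was 1.0 for Hist1h1t, with 9 in line 2 and 3 in the others, values too low to read.

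The effects of PAM from day 1 and of direct CAP for 24 h differed by a direct test for 32 histone genes, lower after PAM at a limma adjusted p under 0.05, beside 0.246% of all genes. By the labels, though not by the study's text, length of contact also differed between these groups.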

How the results depend on the processing

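Of 168 recomputed counts of histone genes called, 136 stayed within 1.5 times the reported one and 32 did not. For 24 h of CAP from day 1, the 5 genes called became 3 with quantile normalization, 1 with no filter, 1 of 16 among genes with at most 10% of windows in another histone gene, 0 with the organoid line as a block, 0 with no library of line 4, 49 at an adjusted p under 0.05, 30 at that level with the block, and 0 to 13 when single libraries were left out. At an adjusted p under 0.05, direct CAP for 24 h had 37 genes (15 with the block), indirect CAP from day 1 had 29 (21), indirect CAP from day 2 had 57 (59) beside 34, and PAM from day 1 against direct CAP for 24 h had 32 (57). In the last comparison the block alone gave 29. With the block at that level, indirect CAP from day 2 against day 1 had 28 and PAM from day 2 against day 1 had 3, and the latter had 4 in one fit of all 7 groups. Leaving out single libraries gave 50 to 54 genes for PAM from day 1, 29 to 35 for indirect CAP from day 2, 52 to 53 for PAM from day 2 and 0 in the other comparisons. The replicate block changed no other call of a count by over 1.5 times. The median moved by more than the spread between libraries in 8 recomputations, all in comparisons with direct CAP for 30 min, indirect CAP from day 1 or indirect CAP from day 2. Named genes kept their sign in all recomputations. After PAM from day 2, 4 of 300 lost the call, for Hist1h4h, Hist2h4 and Hist3h2a, and after 24 h of CAP from day 1, 58 of 420 lost it and 26 gained it. The cause of these shifts was not tested.

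With 3 or 4 libraries a group and no raw counts, counting error could not be modelled. Scaling to a fixed total makes every value relative to the other genes of its library.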
